A study of Mus musculus with 4 samples.

Results

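The respiratory chain genes were taken as all gene symbols of the deposited tables for the subunits of complexes I to V, both those carried in the nucleus (*Nduf*, *Sdha* to *Sdhd*, *Uqcr*, *Cox4* to *Cox8* and *Atp5* symbols) and those of the mitochondrial genome (*mt-Nd*, *mt-Co*, *mt-Cytb* and *mt-Atp*). This rule gave 107 of 21926 genes, 94 nuclear and 13 mitochondrial, after 1 pseudogene was left out. It used names only and no measured value. By symbol, complex I had 38 nuclear and 7 mitochondrial genes, with 8 more nuclear *Ndufaf* genes for its assembly. Complex II had 4 nuclear genes, complex III had 8 nuclear and 1 mitochondrial, complex IV had 18 and 3, and complex V had 18 and 2. *Ndufa4* was counted with complex I by its symbol, although its protein is now placed in complex IV. *Atp5o* was listed under 2 identifiers that overlap on the same strand, and reads of the pair may have been split.

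The counts came from unsorted thymus cells of 1 mouse per genotype, both labelled as female, 5 weeks old and of the same batch, on a C57BL/6 background. The WT mouse was *Eif4g2* flox/flox without Cre, and the mouse called *Eif4g2* cKO had *Cd4*-*Cre* in addition to the flox/flox alleles. Both mice thus carried the floxed alleles, and the *Cd4*-*Cre* transgene deletes from the double-positive (DP) stage on, not in most double-negative (DN) cells. Cells were captured in droplets, and transcripts were counted by 3′ tags, once per unique molecular identifier (UMI). With 1 library per genotype no test between genotypes was possible, and every interval given here is a 95% interval of counting error only. Genotype cannot be told apart from any other difference between the 2 mice or their libraries.

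The respiratory chain moves electrons from NADH (through complex I) and succinate (through complex II) to oxygen, and the proton gradient it builds drives ATP synthesis by complex V. Complexes I, III, IV and V mix proteins from both genomes, whereas complex II is encoded in the nucleus alone. Mitochondrial genes are transcribed as long polycistronic RNAs, nearly all from one strand, which are then cut apart at the tRNAs between them. Thymocytes divide in bursts before the DP stage and rest as small DP cells, and dividing lymphocytes are known to enlarge their mitochondrial content.

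The WT library held 6014 cells and 18355050 UMIs and the cKO library 4335 cells and 18056277 UMIs, with at least 1000 UMIs in every cell. Clusters were named from marker genes, with the members and all other mitochondrial genes kept out of the clustering. DN-like cells numbered 89 in WT and 118 in cKO, cycling-like cells 989 and 1311, DP-like cells 3316 and 2089, early post-selection-like cells 730 and 546, and mature SP-like (single-positive) cells 722 and 214. The mature SP-like class was mixed. Its cluster 10 (37 WT and 14 cKO cells) also had cycling markers raised, and its cluster 3 early post-selection, regulatory T and NKT or gamma delta T markers. Cycling markers together had 1304 CPM in WT and 1659 in cKO mature SP-like cells, against 550 and 748 in DP-like cells. The same markers had 1804 CPM in WT and 2642 in cKO DN-like cells. The DP markers *Cd4*, *Cd8a* and *Rag1* were raised in each DP-like cluster. Different clusters held most cells of a class in the 2 libraries. Of the DP-like cells, cluster 0 held 2565 WT and 159 cKO cells, cluster 1 held 208 and 1729, and cluster 4 held 543 and 201. The cycling-like cells were spread over cluster 5 (63 WT and 663 cKO cells), cluster 6 (394 and 292), cluster 7 (519 and 55) and cluster 8 (13 and 301). *Eif4g2* had 259 CPM (UMIs of the gene per 1000000 UMIs of the class) in WT and 524 in cKO DP-like cells. Its count went against the label, but a 3′ tag does not check a deletion of other exons. Y-linked genes had 2542 UMIs in the WT library and 1 in the cKO library, although both mice are labelled female. The 5 erythroid markers together had 273 CPM in WT and 15.5 in cKO DP-like cells, with 0 and 1 of them at 0, and 548 and 12.7 in cycling-like cells, with 0 and 1 at 0, and their part in the results was not tested.

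Promoters of the nuclear members were read from the RefSeq table of build GRCm38.p6 (250 bases before to 50 after each start), which held 75 of them. They were searched for short stretches of letters, and a gene was counted if any of its starts had a match. The letters GCGCNTGCG, like the site of NRF1, were found on either strand in 26 promoters of the members (34.7%) and in 7.12% of the promoters of all 27025 genes. CCGGAAG, like the site of ETS factors such as GABP, was in 19 (25.3%) against 9.93% of all. AAGATGG, like the site of YY1, was in 11 (14.7%) against 7.28% of all. The promoters of all genes were not matched to those of the members for base composition or expression. A match is only a match of letters and shows no binding. The stretches below lie before the start of genes described further on, are written 5′ to 3′ on the gene's strand, and have the matched letters in capitals. The NRF1-like and ETS-like ones matched on the opposite strand, so their capitals are the reverse complement of the searched letters.
*Atp5g2*, NRF1-like, chr15:102671070-102671099, minus strand: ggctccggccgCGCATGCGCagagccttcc
*Ndufs5*, NRF1-like, chr4:123718265-123718294, minus strand: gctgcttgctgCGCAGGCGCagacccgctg
*Sdha*, NRF1-like, chr13:74350319-74350348, minus strand: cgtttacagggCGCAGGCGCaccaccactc
*Sdhd*, ETS-like, chr9:50603877-50603906, minus strand: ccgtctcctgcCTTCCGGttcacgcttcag
*Atp5e*, ETS-like, chr2:174464185-174464214, minus strand: tacggccacagCTTCCGGtagccgctcggc
*Atp5h*, ETS-like, chr11:115419939-115419968, minus strand: caaggagagaaCTTCCGGcaactctcttcc
*Uqcrh*, ETS-like, chr4:116075071-116075100, minus strand: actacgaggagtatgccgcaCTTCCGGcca
*Atp5j*, YY1-like, chr16:84835046-84835075, minus strand: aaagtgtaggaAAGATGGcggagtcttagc

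The 2 genomes went opposite ways between resting and cycling thymocytes, in both libraries. The nuclear members together made up 2.70% (2.69 to 2.72) of all UMIs in WT DP-like cells and 4.04% (4.03 to 4.05) in WT cycling-like cells. In cKO these shares were 3.21% (3.19 to 3.22) and 4.28% (4.27 to 4.29). The mitochondrial members made up 0.861% (0.854 to 0.869) of UMIs in WT DP-like and 0.50% (0.495 to 0.505) in WT cycling-like cells, and 1.02% (1.01 to 1.03) and 0.402% (0.398 to 0.405) in cKO. On the log2 scale the nuclear sum was thus higher in cycling-like cells by 0.58 in WT and 0.42 in cKO, and the mitochondrial sum lower, at -0.79 and -1.34. Nuclear UMIs per mitochondrial UMI were 3.14 in DP-like cells of both libraries, and 8.09 in WT and 10.7 in cKO cycling-like cells.

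**Figure D1:**
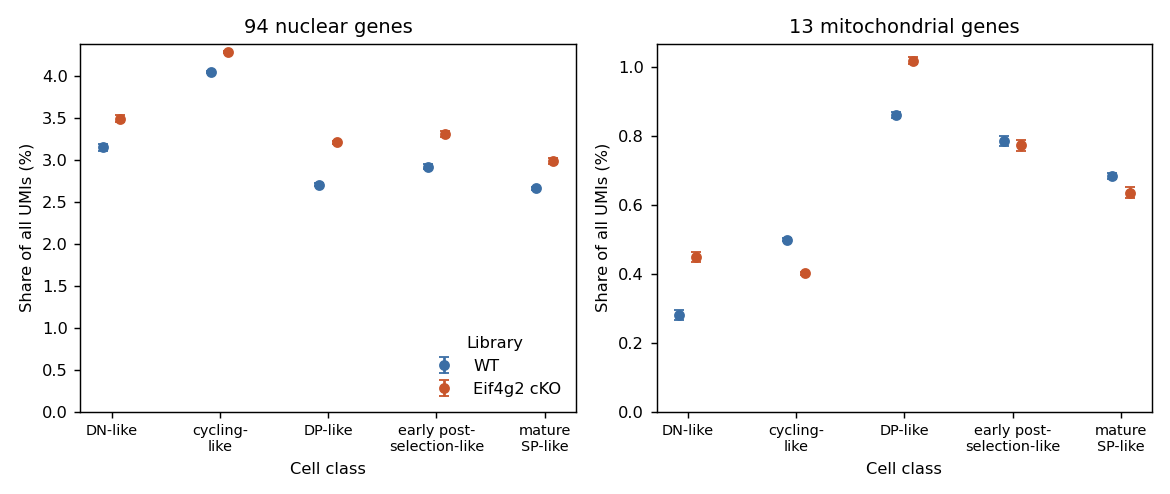
Share of all UMIs (%) taken by the 94 nuclear members (left) and the 13 mitochondrial members (right) in 5 cell classes, with 95% Poisson intervals, which are often smaller than the points; blue is WT and orange is cKO. The nuclear share is highest and the mitochondrial share low in cycling-like cells, while DP-like cells have the highest mitochondrial share, 0.861% in WT and 1.02% in cKO.

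The lower mitochondrial share of cycling-like cells was not a lower count per cell. The median cycling-like cell had 26 mitochondrial member UMIs in both libraries, against 10 in WT and 13 in cKO DP-like cells. Its nuclear member UMIs were 211 in WT and 270 in cKO, against 38 and 44. Cycling-like cells were also deeper, with a median of 5303 and 6352 UMIs against 1401 and 1359. Among cells of 2000 to 4000 UMIs the mitochondrial share was 0.884% in WT DP-like and 0.657% in WT cycling-like cells, and 0.983% and 0.520% in cKO. The nuclear share in the same cells was 2.79% and 3.91% in WT, and 3.30% and 4.32% in cKO. Below 2000 UMIs the mitochondrial shares of cKO cells were close, at 1.05% in DP-like and 1.01% in 47 cycling-like cells. With every cell thinned to 1000 UMIs the mitochondrial ratio was -0.54 in WT and -1.07 in cKO.

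Among the remaining classes, the nuclear share was highest in DN-like and lowest in mature SP-like cells, and the mitochondrial share highest in early post-selection-like and lowest in DN-like cells, in both libraries. Early post-selection-like cells had nuclear shares of 2.91% in WT and 3.30% in cKO and mitochondrial shares of 0.785% and 0.773%. Mature SP-like cells had nuclear shares of 2.66% and 2.98% and mitochondrial shares of 0.685% and 0.636%. DN-like cells had nuclear shares of 3.14% and 3.49% and mitochondrial shares of 0.280%, the lowest among the WT classes, and 0.450% in cKO, where cycling-like cells were lowest. Like cycling-like cells they were deep, with a median of 5142 UMIs in WT and 5743.5 in cKO, and they too had cycling markers. The part of dividing cells and of depth in the DN-like values was not tested. Outside the T lineage, antigen-presenting-like cells (62 in WT and 27 in cKO) had nuclear shares of 2.95% and 3.48% and mitochondrial shares of 0.510% and 0.652%. Erythroid-like cells (44 and 4) had a nuclear share of 0.205% in WT and 0.131% in cKO, and mitochondrial shares of 0.0722% and 0.0748%.

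Of the 101 members with at least 100 UMIs over the cycling-like and DP-like cells of both libraries, 34 (33.7%) were higher by over 0.5 on the log2 scale in cycling-like cells in both libraries, against 13.5% of all 9285 genes. Another 11 (10.9%) were lower by over 0.5 in both, against 49.2% of all genes. The median of all genes was -0.57 in WT and -0.67 in cKO, so most single genes had lower CPM in cycling-like cells. All 34 higher members were nuclear, and 9 of the 11 lower ones were mitochondrial. Among the nuclear members the medians were 0.48 in WT and 0.36 in cKO. The nuclear log2 ratios of WT and cKO had a Pearson's r of 0.926 over 88 members, as a description only, since both ratios share depth and base composition of each gene.

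**Figure D2:**
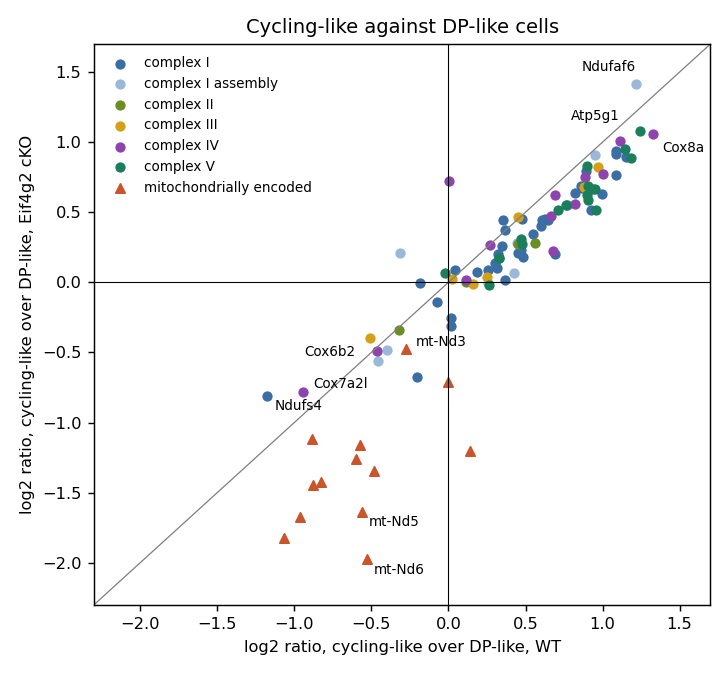
Log2 ratio of CPM in cycling-like over DP-like cells in WT (x axis) and cKO (y axis), 1 point per member with at least 100 UMIs, coloured by complex, with triangles for mitochondrial genes and a grey line of equal ratios. Most nuclear members lie above 0 in both libraries, *Ndufs4* and *Cox7a2l* lie far below, and all mitochondrial members but *mt-Atp8* are at or under 0 in both.

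Complexes differed in how far their nuclear genes were higher in cycling-like cells. The sum of complex V, the ATP synthase, was higher by 0.74 (0.72 to 0.75) in WT and 0.52 (0.51 to 0.54) in cKO, and that of complex IV, cytochrome c oxidase, by 0.64 (0.62 to 0.66) and 0.52 (0.50 to 0.54). Complex I (NADH dehydrogenase) was higher by 0.48 in WT and 0.30 in cKO, complex III (cytochrome bc1) by 0.40 and 0.28, and complex II (succinate dehydrogenase) by 0.28 and 0.14. The assembly genes of complex I were at 0.21 (0.12 to 0.30) and 0.16 (0.07 to 0.26). Over 0.5 in both libraries were 11 of 17 measured genes of complex V, 7 of 14 of complex IV, 11 of 37 of complex I, 3 of 8 of complex III, 2 of 8 assembly genes and 0 of 4 of complex II. In cKO the intervals of complexes IV and V overlapped, and so did those of I and III.

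The 4 genes with the highest ratios by the mean of both libraries were *Ndufaf6*, *Cox8a*, *Atp5g1* and *Cox5a*. *Cox8a*, the somatic form of a small complex IV subunit, had 597 CPM in WT and 744 in cKO DP-like cells. It had 11284 UMIs in WT and 17650 in cKO cycling-like cells. Its log2 ratio was 1.33 (1.27 to 1.39) in WT and 1.06 (1.00 to 1.12) in cKO. *Cox5a*, another complex IV subunit, went from 325 and 403 CPM to 703 and 810. *Ndufaf6*, an assembly factor of complex I, was at 8.06 and 8.78 CPM in DP-like cells and 18.7 and 23.5 in cycling-like cells, with 42 and 30 UMIs in DP-like cells.

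Some nuclear members went the other way, and these too did so in both libraries. They went the way of most single genes, whose medians were -0.57 in WT and -0.67 in cKO. *Ndufs4*, an accessory subunit of the matrix arm of complex I, had 415 CPM in WT and 375 in cKO DP-like cells and 184 and 214 in cycling-like cells, with ratios of -1.17 (-1.27 to -1.08) and -0.81 (-0.91 to -0.71). *Cox7a2l*, a paralogue of *Cox7a2*, went from 633 and 560 CPM to 329 and 326, with ratios of -0.95 and -0.78. *Ndufs4* and *Cox7a2l* were the 2 nuclear members lower by over 0.5 in both libraries. *Uqcrh*, the hinge protein of complex III, was lower at -0.51 and -0.40. The testis-type *Cox6b2* was lower at -0.46 and -0.49, and *Ndufaf1*, an assembly factor, at -0.46 and -0.56.

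Paralogues did not move by the same amount, and some moved opposite ways. The 3 genes *Atp5g1*, *Atp5g2* and *Atp5g3* make the same mature c subunit of the ATP synthase ring. *Atp5g1* was higher in cycling-like than DP-like cells by 1.24 in WT and 1.08 in cKO, *Atp5g2* by 1.15 and 0.95, and *Atp5g3* by 0.71 (0.63 to 0.79) and 0.52 (0.44 to 0.60). In mature SP-like cells *Atp5g1* was above DP-like cells by 0.78 and 0.62 and *Atp5g2* by 0.66 and 0.41, whereas *Atp5g3* was at 0.22 (0.10 to 0.33) in WT and 0.14 (-0.02 to 0.29) in cKO. Pseudogenes match 300 bases of the transcript end of *Atp5g2* at 100% and 186 bases of that of *Atp5g1* at 99.5%. The counts of these 2 genes are thus uncertain, whereas no such copy was found for *Atp5g3*. *Cox7a2*, the ubiquitous form, was higher in cycling-like cells by 0.88 and 0.75, the opposite of *Cox7a2l*. *Cox6b1*, the somatic form of the *Cox6b* pair, was higher by 0.27 in both libraries, against the lower values of *Cox6b2*.

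Among the muscle, lung and testis forms, *Cox6b2* was detected in every class, with 113 CPM in WT and 88.2 in cKO DN-like cells and 49.9 and 50.1 in DP-like cells, while the others had few or no UMIs in DP-like cells. *Cox7a1* was at 9.79 CPM in WT and 9.96 in cKO DP-like cells, and *Cox6a2* at 5.18 and 2.34. *Cox4i2* had 9 UMIs in WT and 1 in cKO DP-like cells, while *Cox4i1* had 6570 and 4480 UMIs (1261 and 1312 CPM), although *Cox4i1* overlaps another listed gene on its strand. *Ndufa4l2* and *Cox8c* had 0 UMIs in DP-like cells of both libraries, *Cox8b* had 2 and 0, and a count of 0 does not show that a gene was silent. In DN-like cells *Cox6a2* had 1 UMI in WT and 36 in cKO, the only class in which this muscle form reached 42.4 CPM. *Cox6a2* lies wholly within another listed gene on the other strand, and how many cells held these UMIs was not examined.

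In complex II no gene was higher by over 0.5 in both libraries. *Sdha*, the flavoprotein, had 109 CPM in WT and 112 in cKO DP-like cells and 87.1 and 89.0 in cycling-like cells, a log2 ratio of -0.32 and -0.34. *Sdhb*, the iron-sulfur subunit, was at 265 and 319 CPM in DP-like and 362 and 386 in cycling-like cells. *Sdhc* and *Sdhd*, the membrane anchors, were at 112 and 117, and at 78.1 and 99.0 CPM, in DP-like cells. In cycling-like cells they reached 121 and 118, and 115 and 120 CPM. In cycling-like over DP-like cells *Sdhc* was at 0.12 (-0.04 to 0.27) in WT and 0.00 (-0.16 to 0.17) in cKO.

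In mature SP-like cells 1 of 98 measured members (1.02%), *Atp5g1*, was higher than in DP-like cells by over 0.5 in both libraries, against 8.12% of all genes. Lower by over 0.5 in both were 5 members (5.10%), against 38.5% of all genes, and these were *Ndufs5*, *Cox6b2*, *Ndufaf3*, *Ndufs4* and *mt-Co1*. *Cox6b2* went from 49.9 CPM in WT and 50.1 in cKO DP-like cells to 12.9 and 15.5, a log2 ratio of -1.95 (-2.49 to -1.45) and -1.69 (-2.59 to -0.90). *Ndufs5*, a small complex I subunit, went from 280 and 350 CPM to 159 and 197. A processed pseudogene matches 186 bases of its transcript end at 100%, so its count is uncertain. *Atp5e*, the epsilon subunit of ATP synthase, was higher by 0.77 in WT and 0.45 in cKO. *Ndufaf6* was at 1.30 (0.70 to 1.91) in WT but 0.18 (-1.08 to 1.29) in cKO, where 9 UMIs were counted. In DN-like over DP-like cells 14 of 99 members (14.1%) were higher by over 0.5 in both libraries, against 9.62% of all genes, and 15 (15.2%) were lower, against 42.7%.

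The promoter letters were also counted by how members differed between cycling-like and DP-like cells. NRF1-like letters were in 10 of 29 promoters (34.5%) of the members higher by over 0.5 in cycling-like cells of both libraries, and in 15 of 43 (34.9%) of the other measured nuclear members. ETS-like letters were in 7 (24.1%) and 12 (27.9%), and YY1-like letters in 6 (20.7%) and 5 (11.6%).

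Between genotypes, the nuclear sum in DP-like cells was higher in cKO by 0.25 (0.24 to 0.26) on the log2 scale and the mitochondrial sum by 0.24 (0.22 to 0.26). These values depended on the mix of clusters. The nuclear ratio was -0.01 (-0.04 to 0.03) in cluster 0, 0.13 in cluster 1 and 0.12 in cluster 4. The mitochondrial ratio was 0.40 in cluster 0, -0.13 (-0.19 to -0.08) in cluster 1 and 0.14 in cluster 4. In cycling-like cells the nuclear sum was higher in cKO by 0.08 and the mitochondrial sum lower at -0.32 (-0.33 to -0.30), but in cluster 6, which holds cells of both libraries, the mitochondrial ratio was 0.23 (0.19 to 0.26) and the nuclear interval held 0. In the other classes the nuclear sum was higher in cKO by 0.15 to 0.18, and the mitochondrial sum was at -0.02 (-0.06 to 0.02) in early post-selection-like, -0.11 in mature SP-like and 0.68 (0.60 to 0.77) in DN-like cells.

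In DP-like cells 100 of the 107 members had at least 50 UMIs over both libraries. Of these, 12 (12.0%) were higher in cKO by over 0.5, against 8.28% of all 8845 genes, and 3 were lower, against 29.5%. The 12 were *Uqcrb*, *mt-Nd3*, *Atp5mpl*, *Ndufa4*, *mt-Co3*, *Ndufab1*, *mt-Co1*, *Atp5j*, *Ndufa1*, *Atp5md*, *Ndufaf1* and *Atp5g3*, and the 3 were *mt-Nd6*, *mt-Nd5* and *Ndufaf7*. The median was 0.22 over the members and -0.18 over all genes. With the median of all genes subtracted, 35 of the 100 members were higher by over 0.5 and 2 lower, against 16.4% and 19.9% of all genes after the same subtraction. In cycling-like cells 4 of 101 members (3.96%) were higher and 7 (6.93%) lower, against 3.25% and 35.2% of all genes. The counts were 13 and 0 of 91 in DN-like cells (all genes 10.5% and 25.3%), 8 and 3 of 95 in early post-selection-like cells (7.57% and 36.9%), and 7 and 7 of 96 in mature SP-like cells (9.17% and 35.9%). Medians of all genes were lower for genes that span more of the genome. Among genes spanning up to 5 kb in DP-like cells, the median was 0.21 for 27 nuclear members and 0.21 for 851 other genes, from 5 to 10 kb it was 0.32 for 32 members and 0.14 for 1076 others, and over 30 kb it was -0.02 for 5 members and -0.49 for 3722 others. The part of gene length in the result was not tested.

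**Figure D3:**
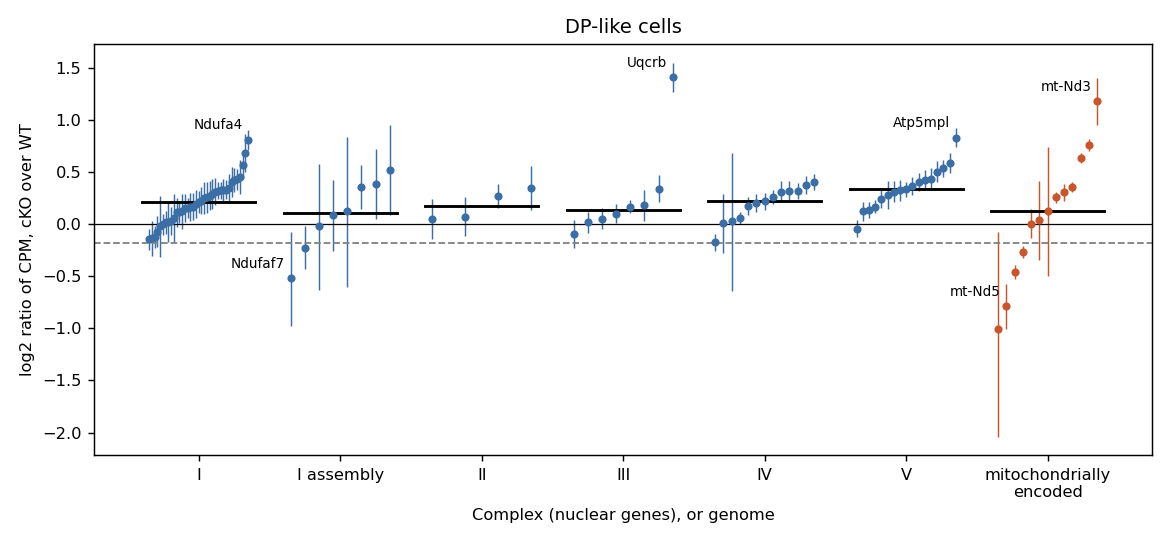
Log2 ratio of CPM, cKO over WT, in DP-like cells for the 100 members with at least 50 UMIs, sorted within each complex, with 95% intervals of counting error. Blue points are nuclear and orange points mitochondrial genes, black bars are medians and the dashed line is the median of all genes, -0.18; *Uqcrb* stands at 1.40 above the other genes of complex III, and the mitochondrial genes span from -1.01 to 1.18.

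*Uqcrb*, a small nuclear subunit of complex III, had the highest ratio of any measured member in DP-like cells. It had 651 UMIs (125 CPM, 116 to 135) in WT and 1130 UMIs (331 CPM, 312 to 351) in cKO DP-like cells, a log2 ratio of 1.40 (1.26 to 1.55). It was as far apart in the other classes, at 1.46 (1.11 to 1.82) in DN-like, 1.41 in cycling-like, 1.55 in early post-selection-like and 1.37 in mature SP-like cells. Within single clusters it ran from 1.05 to 1.74 and was above 0 in 6 of 6. Antigen-presenting-like cells had 147 CPM (99.3 to 210) in WT and 375 (238 to 563) in cKO, and NKT or gamma delta T-like cells 91.5 (56.6 to 140) and 266 (182 to 376). A difference in the same direction was thus also counted in DN-like cells. Outside the T lineage it rested on the antigen-presenting-like cells, with 30 UMIs in WT and 23 in cKO. The cause of the difference was not tested. *Uqcrb* overlaps a gene on the other strand, and 3 processed pseudogenes match 165 to 168 bases of its transcript end at 97.0% to 99.4%, so its count is uncertain. By the same search, pseudogenes or other genes that do not overlap the member matched the transcript ends of 34 members in all. For 3 of these, *Atp5l*, *Cox5b* and *Ndufaf7*, a matching gene is listed in the files. The other measured nuclear genes of complex III lay between -0.10 and 0.34 in DP-like cells.

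*Atp5mpl*, a small proteolipid of ATP synthase, had 352 CPM in WT and 625 in cKO DP-like cells, a ratio of 0.83 (0.74 to 0.92). Its ratio was over 0.5 in all 5 classes, from 0.54 in cycling-like cells up to the DP-like value, and in single clusters it ran from 0.40 to 1.16. *Ndufa4* had 330 and 578 CPM in DP-like cells, a ratio of 0.81 (0.71 to 0.90), and 0.45 (0.40 to 0.49) in cycling-like cells. *Ndufab1*, which is also the mitochondrial acyl carrier protein, was over 0.5 in every class, from 0.53 to 0.88, but its interval was above 0 in 2 of 6 single clusters, and a processed pseudogene matches 229 bases of its transcript end at 100%, so its count is uncertain. The members over 0.5 in all 5 classes were these *Ndufab1* and *Atp5mpl* together with *Uqcrb* and the mitochondrial *mt-Nd3*, 4 in all, and no member was lower by over 0.5 in all 5. *Ndufab1* was named after its values were seen, and so was *Atp5j*, a coupling subunit of ATP synthase, which had 333 CPM in WT and 499 in cKO DP-like cells (0.58, 0.49 to 0.68).

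At the other end, *Ndufaf7*, an arginine methyltransferase that acts in complex I assembly, had 138 UMIs in WT and 63 in cKO DP-like cells (26.5 and 18.4 CPM), a ratio of -0.52 (-0.98 to -0.08). In cycling-like cells it was at 21.3 CPM in both. Its transcript end holds a repeat with many copies in other genes, and its count is uncertain. *Ndufaf3*, another assembly factor, was at 103 and 88.1 CPM, a ratio of -0.23 (-0.44 to -0.02), and at -0.31 (-0.47 to -0.15) in cycling-like cells.

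The genes with most UMIs in each complex lay closer together. *Ndufa13* and *Ndufa6* of complex I were higher in cKO DP-like cells by 0.32 each, and at 0.06 and 0.00 in cycling-like cells. *Ndufa13* overlaps another listed gene on its strand. *Uqcrh* and *Uqcr10* of complex III were at 0.16 and 0.10 in DP-like cells and at 0.27 and -0.13 in cycling-like cells. *Cox4i1* and *Cox7c* of complex IV were at 0.06 and 0.26, and *Atp5h* and *Atp5e* of complex V at 0.17 and 0.33. *Ndufaf8*, an assembly factor, was at 0.35 (0.14 to 0.56). *Sdhb* and *Sdhc* were at 0.27 (0.15 to 0.38) and 0.07 (-0.12 to 0.26).

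The mitochondrial genes did not move as a block between genotypes. *mt-Nd3*, for a subunit of complex I, had 277 UMIs (53.2 CPM) in WT and 410 (120 CPM) in cKO DP-like cells, a ratio of 1.18 (0.95 to 1.40). It was at 0.97 (0.79 to 1.15) in cycling-like, 1.24 in early post-selection-like, 1.23 in mature SP-like and 1.74 (1.08 to 2.45) in DN-like cells. *mt-Co3*, its neighbour upstream, for a subunit of complex IV, had 905 CPM in WT and 1528 in cKO DP-like cells, a ratio of 0.76 (0.70 to 0.81), and 0.17 (0.12 to 0.22) in cycling-like cells. *mt-Co1*, the catalytic subunit of complex IV, had 1283 and 1989 CPM, a ratio of 0.63 (0.58 to 0.68), but -0.12 (-0.18 to -0.07) in cycling-like cells.

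*mt-Nd4*, *mt-Nd5*, *mt-Nd6* and *mt-Cytb*, which lie further along the mitochondrial genome, were lower in cKO DP-like and cycling-like cells. In DP-like cells the 9 genes that lie before *mt-Nd4*, with *mt-Nd4l* the nearest, were not lower. In cycling-like cells place along the genome did not separate the genes. There *mt-Nd1*, *mt-Nd2*, *mt-Atp6* and *mt-Nd4l*, which lie upstream, were among those lower too. The part of place in the result was not tested. *mt-Nd4* had 1141 CPM in WT and 828 in cKO DP-like cells (-0.46, -0.53 to -0.40), and 584 and 260 in cycling-like cells (-1.17, -1.24 to -1.10). *mt-Nd5* had 126 and 72.9 CPM in DP-like cells (-0.79, -1.01 to -0.58), and 85.5 and 23.5 in cycling-like cells (-1.86, -2.08 to -1.66). *mt-Cytb*, the mitochondrial subunit of complex III, had 1469 and 1219 CPM in DP-like cells (-0.27, -0.32 to -0.21), and 797 and 448 in cycling-like cells (-0.83). *mt-Nd6*, read from the opposite strand, had 40 and 13 UMIs in DP-like cells (-1.01, -2.04 to -0.08), and 40 and 11 in cycling-like cells. The 3 genes *mt-Nd4*, *mt-Nd5* and *mt-Cytb* were below 0 in all 6 single clusters, with an interval below 0 in each except for *mt-Nd5* in cluster 1 (-0.16, -0.81 to 0.57). *mt-Nd3* and *mt-Co3* were above 0 in all 6. In DN-like cells *mt-Cytb* was at 0.05 (-0.19 to 0.30) and *mt-Nd4* at -0.19 (-0.47 to 0.09). The few cells outside these classes did not all follow. Antigen-presenting-like cells had 569 CPM (470 to 682) of *mt-Cytb* in WT and 734 (535 to 982) in cKO, and 711 and 701 of *mt-Nd4*. NKT or gamma delta T-like cells had 20 UMIs of *mt-Nd3* (87.1 CPM, 53.2 to 135) in WT and 6 (49.9 CPM, 18.3 to 109) in cKO, and 484 and 133 CPM of *mt-Nd4*.

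**Figure D4:**
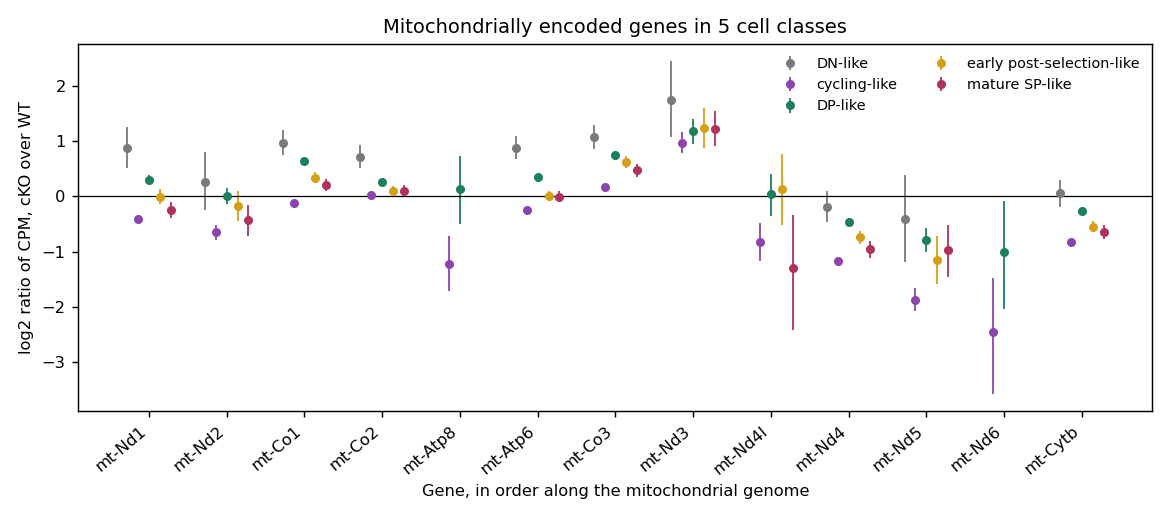
Log2 ratio of CPM, cKO over WT, for the mitochondrial members in the order of their places along the mitochondrial genome, in 5 cell classes, with 95% intervals of counting error; points with under 50 UMIs are left out. *mt-Nd3* is above 0 in every class, *mt-Nd4* and *mt-Nd5* are below 0 in every class, and cycling-like cells have the lowest value at most genes.

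The remaining mitochondrial genes lay between these. In DP-like cells *mt-Atp6* was at 0.35 (0.30 to 0.40), *mt-Nd1* at 0.30 (0.22 to 0.39), *mt-Co2* at 0.26 (0.20 to 0.31) and *mt-Nd2* at 0.00 (-0.14 to 0.14). In cycling-like cells *mt-Atp6* was at -0.25, *mt-Nd1* at -0.41, *mt-Co2* at 0.02 (-0.03 to 0.07) and *mt-Nd2* at -0.65. *mt-Atp8* overlaps *mt-Atp6* by 43 bases and *mt-Nd4l* overlaps *mt-Nd4* by 7, so tags of these pairs cannot be told apart with certainty, and *mt-Nd5* overlaps *mt-Nd6* by 14 on opposite strands. In DP-like cells *mt-Atp8* had 56 UMIs in WT and 40 in cKO, and *mt-Nd4l* 149 and 100. Their ratios were 0.12 (-0.50 to 0.74) and 0.03 (-0.35 to 0.41) in DP-like cells, and -1.21 (-1.72 to -0.72) and -0.83 (-1.18 to -0.48) in cycling-like cells. In mature SP-like cells *mt-Nd4l* was at -1.30 (-2.41 to -0.34). Pseudogenes outside the files matched the transcript ends of 7 mitochondrial members at 95% or more. These were *mt-Nd2* and, at 100%, *mt-Nd3*, *mt-Nd4l*, *mt-Co1*, *mt-Co2*, *mt-Co3* and *mt-Atp6*. No copy was found for *mt-Nd1*, *mt-Nd4*, *mt-Nd5*, *mt-Nd6*, *mt-Atp8* or *mt-Cytb*. The counts of those with a copy are uncertain, and the part of these copies in the results was not tested.

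As a result the make-up of the mitochondrial sum differed between the libraries. The 3 complex IV genes held 41.5% of mitochondrial member UMIs in WT and 50.8% in cKO DP-like cells, and 14834 of 37578 (39.5%) and 22850 of 45674 in cycling-like cells. The 7 complex I genes held 23.7% and 18.2% in DP-like and 27.2% and 20.8% in cycling-like cells, and *mt-Cytb* held 17.1% and 12.0% in DP-like cells. The 2 complex V genes held 17.7% and 19.1%, and 17.3% and 18.0%. The nuclear sum kept a like make-up, with complex I at 33.5% and 33.2%, complex IV at 24.5% and 23.7%, and complex V at 28.2% and 29.8% in WT and cKO DP-like cells.

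**Figure D5:**
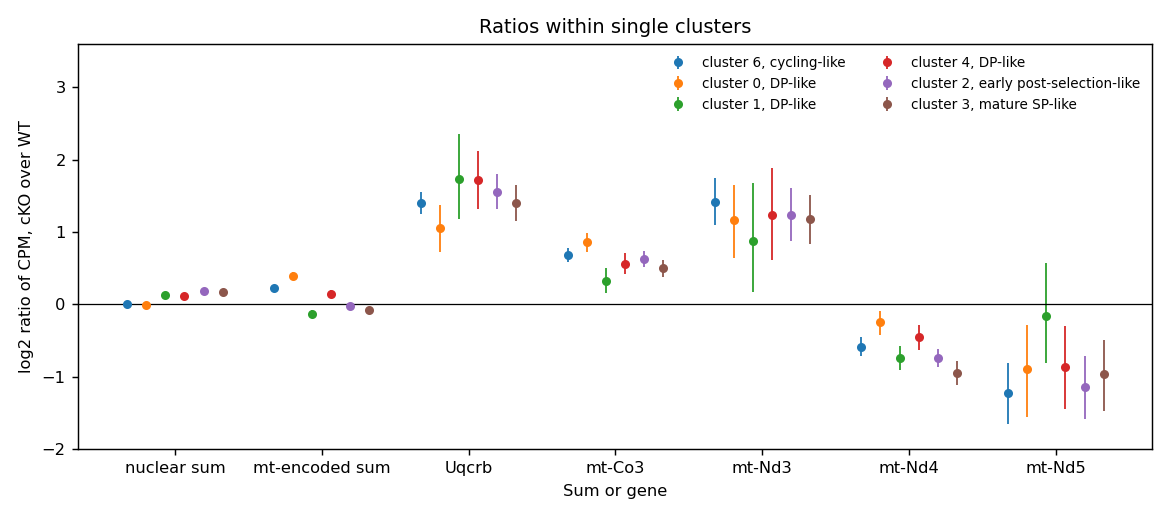
Log2 ratio of CPM, cKO over WT, within each of the 6 clusters that hold at least 100 cells of both libraries, for both sums and 5 single genes, with 95% intervals of counting error. *Uqcrb*, *mt-Co3* and *mt-Nd3* lie above 0 and *mt-Nd4* and *mt-Nd5* below 0 in each cluster, whereas the mitochondrial sum lies above 0 in 3 of 6.

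Genes that act on the chain from outside the members were counted in 4 lists, against the same 8.28% higher and 29.5% lower of all genes. Of 34 measured assembly and carrier genes, 4 were higher by over 0.5 in cKO DP-like cells and 3 lower, with a median of 0.02. *Cycs*, cytochrome c itself, had 142 CPM in WT and 244 in cKO DP-like cells, a ratio of 0.78, and was higher in cycling-like than DP-like cells by 1.47 in WT and 1.13 in cKO. Of 17 measured genes that replicate, transcribe or process the mitochondrial genome, 3 were higher in cKO DP-like cells and 2 lower. *Lrpprc* and *Slirp*, whose proteins bind and stabilise mitochondrial mRNAs as a pair, lay on opposite sides, at -0.78 and 0.61, and *Tfam*, the packaging and transcription factor of the mitochondrial genome, was at 0.26. Among 9 measured transcription factors and coactivators of nuclear respiratory genes, 0 were higher and 3 lower (*Nrf1*, *Esrra* and *Gabpb2*), with a median of -0.34. Of 77 measured genes of the mitochondrial ribosome, 8 were higher and 0 lower in DP-like cells, and 20 were higher and 2 lower by over 0.5 in cycling-like than DP-like cells in both libraries, against 13.5% and 49.2% of all genes. The single genes of this paragraph were named after their values were seen.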

How the data were processed

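The deposited values are whole-number UMI counts of each gene in each cell, made by the authors with dnbc4tools (3.0 per the file headers) and not normalized. The labels name the build mm10, and 21379 of 21926 identifiers, and all 107 members, occur with the same version in GENCODE M21, from which spans were taken. Oligo libraries named in the labels had no values of their own and were not used.

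Cells with at least 50 genes and at most 10% mitochondrial UMIs were kept (6012 of 6014 WT and 4335 of 4335 cKO cells). Both libraries together were scaled to 10000 UMIs per cell, logged and clustered (scanpy 1.11.5, 2000 variable genes, 30 components, 20 neighbours, Leiden resolution 1, seed 1) without the members, other mt- genes and *Eif4g2*, and again for T lineage clusters. A cluster was named "X-like" from at least 3 raised markers of a list. Scrublet called 0 doublets, which was read as a failure, and none was removed. The libraries share 1055 barcode names, which are numbered names and not sequences.

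Counts were summed per class and library and given as CPM with exact Poisson intervals, and ratios with exact conditional binomial intervals, at 95%. The totals of 18355050 UMIs in WT and 18056277 in cKO set these intervals, which cover counting error only. A gene was measured from 50 UMIs in the 2 libraries on (100 for comparisons of classes), and 0.5 on the log2 scale was the threshold. The ratios, their intervals and the threshold were tried on simulated Poisson counts for DP-like cells, the model that the intervals assume. Clustering, class names and the sequence searches were not simulated. The last 300 bases of member transcripts were compared with all GENCODE transcripts (blastn, at least 95% over 100 bases). With 1 library per genotype no test was made.

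The members and all lists were chosen with earlier results of these data known. Named genes were each mitochondrial member, the 2 nuclear members of each complex with most UMIs in DP-like cells, the 5 highest and 5 lowest cKO to WT ratios there (at least 100 UMIs), the 4 highest and 4 lowest nuclear ratios of cycling-like and of mature SP-like over DP-like cells, 7 sets of paralogues and the 4 *Sdh* genes. Alternatives changed the cell filter, clustering, denominator, weighting of cells, depth and minimum count.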

Additional observations from a re-analysis of the deposited data

Results flagged for a closer look

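The log2 ratio of cKO to WT for the mitochondrial sum had opposite signs between classes. It was 0.24 in DP-like and 0.68 in DN-like cells, and -0.32 in cycling-like and -0.11 in mature SP-like cells, each with a counting interval on 1 side of 0. The difference between classes was not tested, since each genotype had 1 library. The value of a class moved with the clusters in it, and in cluster 6, the 1 cycling-like cluster with at least 100 cells of each library, it was 0.23.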

How the results depend on the processing

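The directions of cycling-like over DP-like cells were kept in both libraries under all alternatives tried, for both sums. With 1000 to 10000 UMIs and at most 3% mitochondrial UMIs the nuclear ratio was 0.54 in WT and 0.40 in cKO and the mitochondrial ratio -0.47 and -0.95. With the mean of per-cell shares the nuclear ratio in WT was 0.56 and the mitochondrial ratio -0.56 and -1.10, and with cells thinned to 1000 UMIs 0.56, -0.54 and -1.07. Genes outside the members and the other mt- genes as denominator gave 0.60 for the nuclear sum in WT. With each library clustered alone the cKO ratios were 0.45 and -1.38, and the nuclear ratio of cKO to WT in DP-like cells was 0.21. Resolution 1.6 and no cap on mitochondrial UMIs, which removed no cell, changed none of these by more than its counting interval.

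The ratios of cKO to WT in DP-like cells were less stable. The mitochondrial ratio was 0.27 with the mean of per-cell shares and 0.27 with thinned cells, where the nuclear ratio was 0.24. In clusters 0, 1 and 4 alone, an alternative chosen after seeing the data, the nuclear ratio was -0.0056, 0.13 and 0.12 and the mitochondrial ratio 0.40, -0.13 and 0.14, so that the mitochondrial sum reversed in cluster 1, while the nuclear interval in cluster 0 held 0. The cause was not tested. Subtracting the median of all genes raised the count of members higher by over 0.5 from 12 to 35, and the share of all genes from 8.28% to 16.4%.

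No paired analysis was possible because each genotype had 1 library. Differences between mice, sexes or library preparations cannot be told apart from genotype, and members with few UMIs had wide intervals.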
